A study of Mus musculus with 5 samples.

Results

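The 7 genes Col2a1, Col9a1, Col9a2, Col9a3, Col10a1, Col11a1 and Col11a2, which encode the collagens of hyaline cartilage, were followed in single-cell RNA-Seq of the mouse temporomandibular joint (TMJ) disc. They were taken by gene symbol from the 27998 genes in the count tables, and each symbol matched 1 gene. Discs of C57BL/6 wild type (WT) mice gave 5 libraries, 1 per condition. Normal discs came from mice of 3 d, of which the study used pups of both sexes in 1 cell suspension, and from male mice aged 3 w, 16 w or 78 w. They are called newborn, juvenile, adult and aged here. The aged counts were deposited under a name that holds 16M, which may stand for another age in months, and the 78 weeks of the labels are used. The injured library came from mice whose right disc was punctured with a needle at the anterior band at 5 weeks of age and taken 2 weeks later, at 7 weeks, with sex not stated. The labels give these mice as WT, whereas the study's own description of the injury names Myh11-CreER+; Tm fl/- mice. No sham-operated discs and no normal discs of 7 weeks were analysed here, so the injured library is set beside both the 3 w and the 16 w library. With 1 library per condition there is no replicate and no test: every interval given is an exact 95% interval of the counts, and covers counting error only. Intervals of levels and ratios take each UMI as independent, and are too narrow where a few cells hold many of a gene's UMIs.

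Type II collagen, a homotrimer of the Col2a1 chain, forms the fibrils of hyaline cartilage. Type XI collagen, with chains from Col11a1, Col11a2 and Col2a1 itself, sits in the core of these fibrils and limits their diameter, while type IX collagen, a heterotrimer of the Col9a1, Col9a2 and Col9a3 chains, is attached to their surface and links them to the rest of the matrix. Type X collagen, a homotrimer of the Col10a1 chain, is laid down by hypertrophic chondrocytes and is known from cartilage that is about to mineralize. The TMJ disc is a fibrocartilage, whose fibrils are mostly type I collagen.

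The study's processing used mouse build mm10, and the positions here are from the same assembly (GRCm38, GENCODE M21). Col2a1 lies at chr15:97975602-98004695 on the minus strand, and the other 6 genes lie on the plus strand of their chromosomes. These are chr1:24177610-24252684 for Col9a1, chr4:121039385-121055322 for Col9a2, chr2:180597790-180622189 for Col9a3, chr10:34389981-34397085 for Col10a1, chr3:114030540-114220718 for Col11a1 and chr17:34039437-34066685 for Col11a2. Both coding transcripts of Col9a1 share 1 end and differ in their start, so 3′ counts cannot tell the long from the short form. Col10a1 lies within Nt5dc1 and the end of Col9a3 overlaps that of Tcfl5, in both cases on the opposite strand.

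Promoter windows from RefSeq (build GRCm38.p6) were found for 5 of the 7 genes. The 250 bases before the start of the Col11a1, Col11a2 and Col10a1 transcripts are shown, 5′ to 3′ on the plus strand. The RefSeq start of Col11a2 lies upstream of the GENCODE gene start above, and its distances are counted from the RefSeq start. The 2 Col11 chains are shown because they form 1 trimer yet differed in their levels over the stages, and Col10a1 because it was high in 1 library. Capitals mark matches on either strand to TATAAA (the letters of a TATA box), GGGCGG (a GC box) and TGTGGT (the RUNX core). They also mark AACAAT or ACAAAG, letters that SOX factors bind. These are matches of letters only, and binding or use at these positions was not tested.
Col11a1, chr3:114030290-114030539: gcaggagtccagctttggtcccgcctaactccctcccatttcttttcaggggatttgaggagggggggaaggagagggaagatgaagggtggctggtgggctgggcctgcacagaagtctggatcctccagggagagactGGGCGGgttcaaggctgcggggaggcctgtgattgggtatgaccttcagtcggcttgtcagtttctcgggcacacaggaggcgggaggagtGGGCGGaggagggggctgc
Col11a2, chr17:34038888-34039137: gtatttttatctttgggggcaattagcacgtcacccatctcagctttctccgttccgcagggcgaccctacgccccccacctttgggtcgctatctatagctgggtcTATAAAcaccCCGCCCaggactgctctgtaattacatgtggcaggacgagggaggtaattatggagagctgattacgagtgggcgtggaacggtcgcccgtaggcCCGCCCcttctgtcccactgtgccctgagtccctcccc
Col10a1, chr10:34389731-34389980: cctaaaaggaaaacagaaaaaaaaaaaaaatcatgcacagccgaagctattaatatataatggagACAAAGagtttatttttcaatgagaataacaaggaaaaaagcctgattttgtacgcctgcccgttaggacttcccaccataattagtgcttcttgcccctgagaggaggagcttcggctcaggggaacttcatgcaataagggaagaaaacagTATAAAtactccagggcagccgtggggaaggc
The Col11a1 window held 2 GGGCGG matches and no TATAAA, whereas the Col11a2 window held TATAAA 143 bases and GGGCGG 133 and 38 bases before the start. The Col10a1 window held TATAAA 32 bases and ACAAAG 185 bases before the start. No capitals of these matches overlap. Of 32851 windows of the same length over all genes, 12.4% held TATAAA, 32.7% GGGCGG, 16.5% ACAAAG, 9.42% AACAAT and 14.0% TGTGGT, so none of these matches is rare.

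Cells were grouped without the cartilage collagens and related genes. Clusters 1, 2, 3 and 10 each carried at least 4 of 7 fibroblast markers (Col1a1, Col1a2, Col3a1, Dcn, Lum, Pdgfra, Fmod) and are called stromal, which gave 10958, 7931, 7683, 8363 and 6842 stromal cells in the libraries of 3 d, 3 w, 16 w, 78 w and injury, the order used for all lists of 5 values here. The leading genes of clusters 1 and 2 held none of these markers and instead genes such as Ibsp, Chad, Comp, Coch and Myoc, cluster 3 was led by Pi16 and Clec3b, and cluster 10 by cell-cycle genes, so values are also given by cluster number. Cluster 1 made up 13.5% of stromal cells at 3 d and 48.7% to 57.4% in the other 4 libraries. By the same measure clusters 1 and 2 also carried 4 of 7 chondrocyte markers (Acan, Hapln1, Matn1, Matn3, Snorc, Cnmd, Sox9), cluster 10 carried 3 and cluster 3 carried 1. Of 5 tenocyte markers (Tnmd, Scx, Mkx, Kera, Thbs4), clusters 1, 2, 3 and 10 carried 4, 5, 2 and 5. Summed over stromal cells the 7 chondrocyte markers stood at 350 to 1126 CPM, that is UMIs for each 1e6 UMIs of the same cells. The 5 tenocyte markers stood at 693 to 1348 CPM. Sox9 stood at 184 to 938 CPM, Hapln1 at 47.4 to 136 CPM, Acan at 27.5 to 119.5 CPM, Snorc at 0.920 to 58.8 CPM and Cnmd at 0.230 to 17.1 CPM, whereas Matn3 stood at 0.0124 to 0.147 CPM and Matn1 had 1 UMI in all libraries together. Median UMIs per stromal cell were 8423 to 13233 in the normal libraries and 3590 in the injured one. Xist RNA, made from the inactive X chromosome of females, stood at 874 CPM at 3 d, 0.0877 to 0.337 CPM at 3 w to 78 w and 644 CPM in the injured library. The sex of the mice and the injury therefore cannot be told apart, and nor can sex and age in any comparison with 3 d. The study states that the Myh11-CreER transgene lies on the Y chromosome and that only males were used for lineage tracing. The Xist RNA of the injured library therefore did not come from such males alone. Library pairs shared 19 to 39 cell barcodes.

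Col2a1, the type II chain, was scarce in the newborn disc and highest in the aged and injured discs. In stromal cells it stood at 9.57 CPM at 3 d (978 UMIs), 24.5 CPM at 3 w (2771 UMIs), 56.7 CPM at 16 w (4556 UMIs), 159.6 CPM at 78 w (14578 UMIs) and 181 CPM in the injured library (5061 UMIs). Each normal stage was thus higher than the one before it, and none of the 5 counting intervals overlapped. From 3 w on a few cells held most of the UMIs, and these intervals do not cover which cells were sampled. The ratio was 2.56 for 3 w over 3 d (2.38 to 2.76), 2.31 for 16 w over 3 w (2.21 to 2.43) and 2.81 for 78 w over 16 w (2.72 to 2.91). The injured library stood 7.38-fold above 3 w (7.04 to 7.73) and 3.19-fold above 16 w (3.06 to 3.32). In endothelial-like cells, which should not make Col2a1, the level was 2.06, 3.47, 13.9, 17.8 and 10.4 CPM in the same order, 4.10 to 17.5 times below the stromal one. Of cells outside the stromal clusters, 0, 3, 1, 4 and 2 held 10 or more Col2a1 UMIs.

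**Figure D1:**
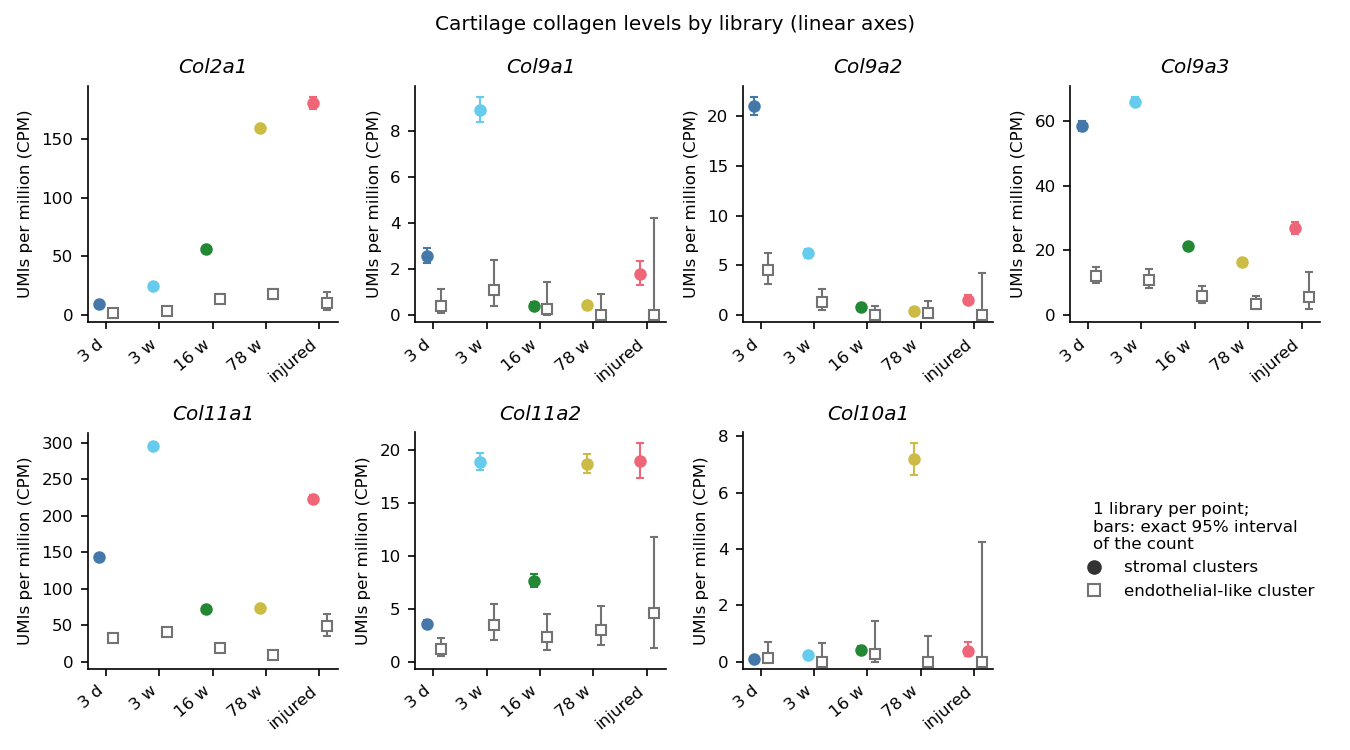
Levels of the 7 cartilage collagens in CPM (linear axes) in the 5 libraries, for the stromal clusters (filled circles) and the endothelial-like cluster (open squares), with exact 95% intervals of the counts. Col2a1 goes from 9.57 to 159.6 CPM over the 4 normal stages, Col9a1, Col9a3 and Col11a1 are highest at 3 w, Col9a2 at 3 d, and Col10a1 at 78 w.

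In every library but that of 3 d, a few cells held most of these Col2a1 transcripts. The newborn disc had 683 stromal cells with a Col2a1 UMI and at most 10 UMIs in any cell, and it took 194 of its cells to hold 50% of the UMIs. In the other 4 libraries that number was 6, 10, 39 and 24 cells, and the highest cell held 449, 489, 1120 and 244 UMIs. Cells with at least 10 Col2a1 UMIs, called Col2a1-high here, numbered 1, 31, 68, 227 and 105 in the 5 libraries. They made up 0.391% (0.266% to 0.554%), 0.885% (0.688% to 1.12%), 2.71% (2.38% to 3.09%) and 1.53% (1.26% to 1.86%) of stromal cells in the last 4 libraries, and held 83.3%, 87.3%, 92.9% and 88.2% of the stromal Col2a1 UMIs. The limit of 10 UMIs lies on a continuum, with 21, 35, 73 and 37 cells at 5 to 9 UMIs and 11, 29, 66 and 37 at 10 to 19.

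The Col2a1-high cells held 1.02% of the stromal Col2a1 UMIs at 3 d and 83.3% at 3 w. They were chosen by Col2a1 itself, 1 at 3 d and 31 at 3 w. Leaving them out therefore lowers 3 w against 3 d by the choice alone, and tests nothing. The limit of 10 UMIs also stands for a different CPM at each depth, so the levels that remain are not strictly comparable. Without the Col2a1-high cells Col2a1 stood at 9.48, 4.12, 7.35, 12.0 and 22.0 CPM in the 5 libraries. The level at 3 w was then lower than at 3 d, at a ratio of 0.435, while the ratio of 78 w over 16 w was 1.63. With each cell thinned to 1000 UMIs, all cells have the same depth, and a deep cell no longer weighs more than another. The ratio was then 1.82 for 3 w over 3 d and 1.58 for 16 w over 3 w, both under 2-fold. The share of stromal cells with any Col2a1 UMI was not in the order of the level, with 6.23%, 3.73%, 4.26%, 7.89% and 5.39%. Endothelial-like cells had shares of 1.40%, 0.533%, 0.698%, 1.76% and 1.79%, at median depths of 5232.5, 5748, 5426, 4852 and 1791.5 UMIs. After thinning, cells with 2 or more Col2a1 UMIs made up 0.0734%, 0.202%, 0.495%, 1.66% and 1.75% of the stroma. At equal depth the injured share (1.44% to 2.10%) was thus above that of 3 w (0.115% to 0.328%) and 16 w (0.351% to 0.679%) and overlapped that of 78 w (1.40% to 1.96%).

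**Figure D2:**
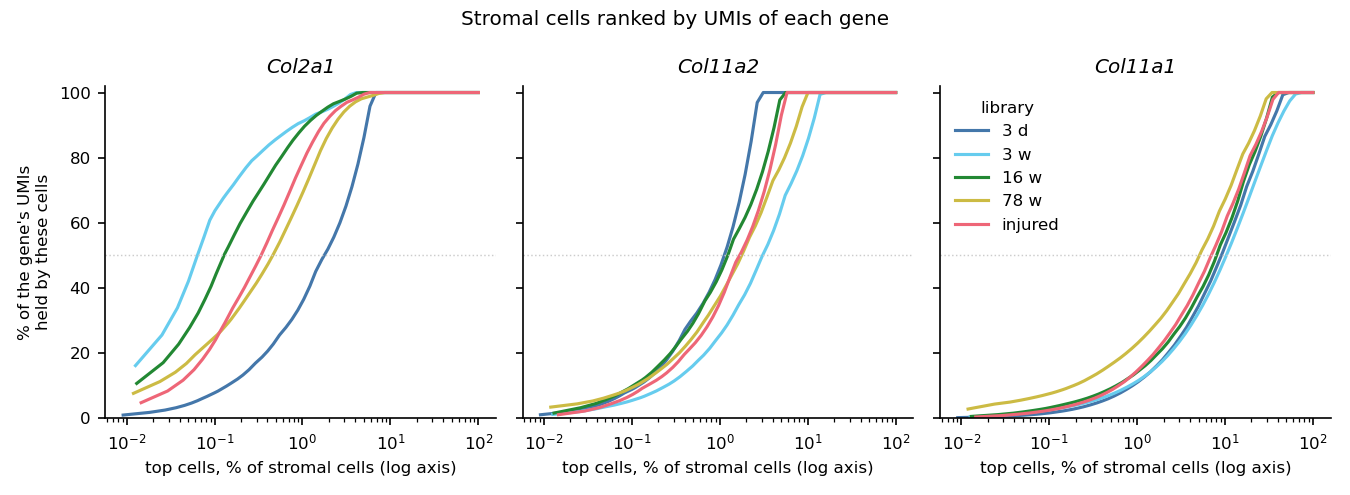
Stromal cells of each library ranked by their UMIs of Col2a1, Col11a2 or Col11a1; the horizontal axis is the share of top cells (%, log axis) and the vertical axis the share of the gene's UMIs that they hold (%). For Col2a1, 0.0757% of stromal cells held 50% of the UMIs at 3 w and 1.77% at 3 d, whereas for Col11a1 50% needed 5.13% to 10.4% of cells in every library.

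Col2a1-high cells lay mostly in cluster 1: 22 of 31, 58 of 68, 209 of 227 and 74 of 105 in the libraries from 3 w on, with nearly all others in cluster 2. The level of the whole cluster 1 was 3.04, 33.1, 97.2, 243 and 300.5 CPM. Cluster 2 had 12.2 CPM at 3 d, 33.6 CPM at 78 w and 75.4 CPM after injury, with ratios of 1.23 for 3 w over 3 d and 0.801 for 16 w over 3 w. Cluster 3 had 8.38, 1.29, 1.74, 9.73 and 15.4 CPM. Between 3 d and 3 w Col2a1 was therefore 10.9-fold higher in cluster 1 (7.62 to 16.2) and 6.50-fold lower in cluster 3. The injured library was above 3 w in all 3 clusters, by 9.07-fold, 5.03-fold and 11.9-fold. The Col2a1-high cells also held more RNA, with a median of 20777, 18477.5, 17250 and 6481 UMIs against 13215, 9541, 9735 and 3576 in other stromal cells, and 1, 4, 4 and 2 of them were marked as possible doublets. The part of cell size or doublets in the result was not tested.

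All 3 type IX chains were lower in the adult than in the juvenile disc. Col9a2 was highest in the newborn disc, at 21.0 CPM (2148 UMIs), and had 6.22 CPM at 3 w (703 UMIs), 0.822 CPM at 16 w (66 UMIs) and 0.405 CPM at 78 w (37 UMIs), with 1.54 CPM in the injured library (43 UMIs). The level at 3 w was 3.38-fold lower than at 3 d (3.102 to 3.685), and the adult level was 7.57-fold below the juvenile one (5.88 to 9.90). Col9a1 had its peak at 3 w instead, with 2.57 CPM at 3 d (263 UMIs), 8.92 CPM at 3 w (1008 UMIs), 0.398 CPM at 16 w (32 UMIs), 0.427 CPM at 78 w (39 UMIs) and 1.79 CPM in the injured library (50 UMIs). It was 3.47-fold higher at 3 w than at 3 d (3.02 to 3.98) and 22.4-fold lower at 16 w than at 3 w (15.8 to 32.9). As a ratio of 16 w over 3 w this is 0.0447, and 0.0175 with the level of endothelial-like cells subtracted from both. This difference between the juvenile and adult disc was present in clusters 1 and 2, at 0.0497 and 0.0441 of the juvenile level for Col9a1 and 0.124 and 0.147 for Col9a2.

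At 16 w, 78 w and after injury stromal Col9a1 and Col9a2 were detected, but too low to set apart from the level of endothelial-like cells. Endothelial-like cells held 1, 0 and 0 Col9a1 UMIs and 0, 1 and 0 Col9a2 UMIs in these libraries. The exact interval of a count of 0 reaches 0.964 CPM in the adult, 0.923 CPM in the aged and 4.24 CPM in the injured library, and that of 1 UMI reaches 1.46 CPM for Col9a1 in the adult and 1.39 CPM for Col9a2 in the aged library. Stromal Col9a1 and Col9a2 lay below these limits, and the interval of adult Col9a2, 0.636 to 1.04 CPM, includes its limit. For the stroma as a whole, a level above that of endothelial-like cells was thus not detectable at this depth. The Col2a1-high cells held 1.73%, 5.03% and 2.90% of all stromal UMIs at 16 w, 78 w and after injury. They held 28.1%, 35.9% and 8% of the Col9a1 UMIs and 18.2%, 70.3% and 30.2% of the Col9a2 UMIs. Col9a2 was 2.03-fold lower at 78 w than at 16 w (1.34 to 3.12), with fewer than 100 UMIs in both. The ratio of 78 w over 16 w, 0.493, was 0.185 without the Col2a1-high cells.

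Col9a3, the third chain of the same trimer, kept a higher level. It stood at 58.4 CPM at 3 d (5963 UMIs), 65.9 CPM at 3 w (7451 UMIs), 21.3 CPM at 16 w (1708 UMIs), 16.3 CPM at 78 w (1489 UMIs) and 26.9 CPM in the injured library (753 UMIs). The juvenile and newborn discs were thus close, at a ratio of 1.13 (1.09 to 1.17), and the adult disc stood at 0.322 of the juvenile one (0.306 to 0.340). Within clusters 2 and 3, Col9a3 was lower at 3 w than at 3 d, at 0.619 and 0.682 of the 3 d level, and in cluster 1 the ratio was 1.08 (0.996 to 1.17). Stromal cells with a Col9a3 UMI made up 25.2%, 34.1%, 12.7%, 9.05% and 8.26% in the 5 libraries, and endothelial-like cells 5.24%, 4.40%, 2.09%, 1.62% and 1.28%. After thinning the stromal shares were 5.38%, 4.87%, 1.499%, 1.16% and 2.39%. The injured disc thus came above the adult one, as in CPM, whereas 3 d came above 3 w, unlike in CPM.

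The 3 type IX transcripts did not keep 1 proportion. How well each transcript is captured is unknown, so the ratio of 2 genes has no meaning by itself here, but its change between libraries has. The UMIs of Col9a3 per UMI of Col9a2 were 2.78 in the newborn (2.64 to 2.92), 10.6 in the juvenile (9.81 to 11.5), 25.9 in the adult (20.2 to 33.6), 40.2 in the aged (29.1 to 57.4) and 17.5 in the injured disc (12.9 to 24.4). Col9a3 per Col9a1 was lowest at 3 w, at 7.39 (6.92 to 7.90), and 22.7 in the newborn, 53.4 in the adult, 38.2 in the aged and 15.1 in the injured disc. Both ratios were higher in the adult and aged libraries than at 3 w, and the adult and aged intervals overlapped for both.

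**Figure D3:**
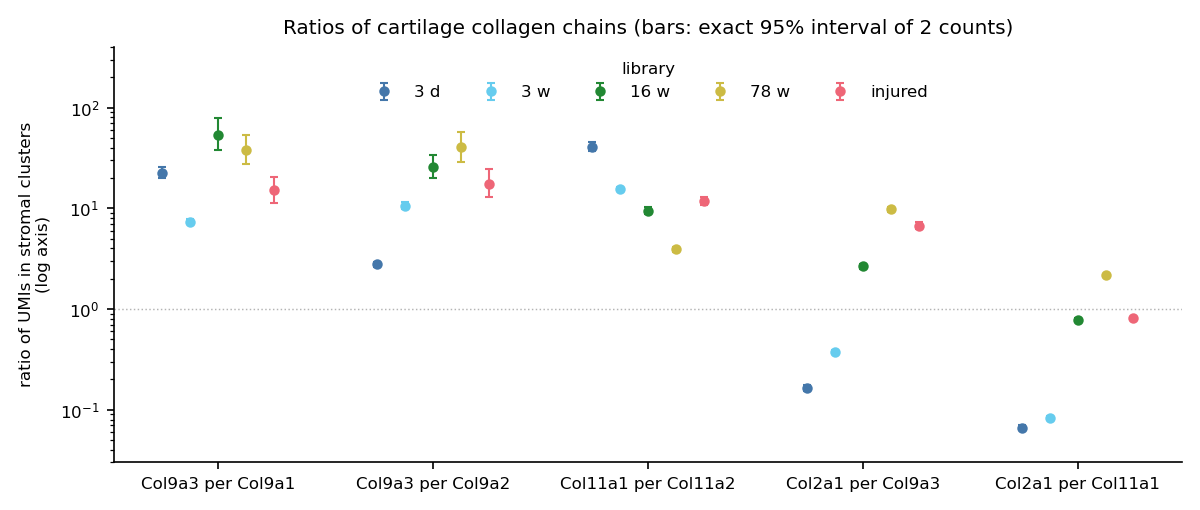
UMIs of 1 cartilage collagen per UMI of another in the stromal clusters of the 5 libraries (log axis), with exact 95% intervals. Col11a1 per Col11a2 goes from 40.9 at 3 d to 3.90 at 78 w, and Col2a1 per Col11a1 from 0.0666 to 2.19.

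Col11a1, the α1(XI) chain of the fibril core, was the most widely detected of the 7 genes. Stromal cells with a Col11a1 UMI made up 46.4%, 65.4%, 35.7%, 30.9% and 37.0% in the 5 libraries, against 3.09% to 11.2% of endothelial-like cells. Its level was 143.8 CPM at 3 d (14692 UMIs), 296 CPM at 3 w (33465 UMIs), 72.4 CPM at 16 w (5818 UMIs), 72.9 CPM at 78 w (6658 UMIs) and 223 CPM in the injured library (6250 UMIs). The juvenile disc was the highest, the adult disc was 4.09-fold lower (3.98 to 4.21), and the aged disc did not differ from the adult one beyond counting error, at a ratio of 1.01 (0.972 to 1.04). The 2.06-fold step from 3 d to 3 w (2.02 to 2.10) was present in cluster 1, at 1.90-fold, and had the opposite sign in clusters 2 and 3, at 0.857 and 0.797 of the newborn level, while cluster 1 held 13.5% of stromal cells in the newborn and 54.5% in the juvenile disc. With equal weight for each stromal cluster the ratio was 1.30. The lower adult level was present in clusters 1, 2 and 3, at 0.227, 0.328 and 0.371 of the juvenile one. The injured disc stood 3.08-fold above 16 w (2.98 to 3.20) and at 0.754 of the 3 w level (0.734 to 0.775).

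Col11a2, the α2(XI) chain, was low at birth and was high again in the aged disc. It stood at 3.51 CPM at 3 d (359 UMIs), 18.9 CPM at 3 w (2133 UMIs), 7.63 CPM at 16 w (613 UMIs), 18.7 CPM at 78 w (1705 UMIs) and 18.9 CPM in the injured library (530 UMIs). The 3 w, 78 w and injured levels lay within each other's counting intervals. The ratio was 5.37 for 3 w over 3 d (4.80 to 6.02), 0.404 for 16 w over 3 w (0.369 to 0.442) and 2.45 for 78 w over 16 w (2.23 to 2.69). The first of these was above the ratio within each large cluster, at 4.74 in cluster 1, 1.93 in cluster 2 and 1.45 in cluster 3 (0.890 to 2.31), and was 3.16 with equal weight for each stromal cluster. The step from adult to aged was 2.58-fold in cluster 1 (2.32 to 2.87) and 1.43-fold in cluster 2 (1.15 to 1.79). Col11a1 per Col11a2 was 40.9, 15.7, 9.49, 3.90 and 11.8. Over the 4 normal stages each ratio lay below the one before it, with no overlap of intervals.

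Type XI collagen also pairs with type V in tissues without cartilage. Col5a1, the α1(V) chain that most resembles α1(XI), stood at 835, 341, 133.5, 176 and 365.5 CPM. Col11a1 per Col5a1 was therefore lowest in the newborn disc, at 0.172, and then 0.868, 0.543, 0.415 and 0.611.

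Col10a1, the hypertrophic type X collagen, was found mainly in the aged disc. The stromal cells held 9 (0.0881 CPM), 26 (0.230 CPM), 32 (0.398 CPM), 656 (7.18 CPM) and 11 Col10a1 UMIs (0.393 CPM) in the 5 libraries, and endothelial-like cells 1, 0, 1, 0 and 0. The aged level was 18.0-fold above the adult one (12.6 to 26.6) and 81.5-fold above the newborn one (42.7 to 179). Of the 656 UMIs in the aged disc, 174 lay in 1 cell and 43.1% in 2 cells. All 36 aged cells with at least 3 Col10a1 UMIs lay in cluster 1, none was marked as a doublet, and 35 of the 36 also held Col2a1. At 16 w 3 cells had as many Col10a1 UMIs, and at 3 d, 3 w and after injury 1 cell each. With the Col2a1-high cells left out the ratio of 78 w over 16 w was 4.63 and that of 78 w over 3 d 7.33. With the endothelial-like level subtracted that of 78 w over 16 w was 52.4.

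The aged Col10a1 cells held more RNA of Ibsp, Spp1, Alpl, Bglap, Pth1r and Sp7, and of Col9a1 and Col9a2, than the other stromal cells. In the 36 cells Ibsp, a bone matrix sialoprotein, stood at 9127.5 CPM against 268 CPM in the other stromal cells, Spp1 (osteopontin) at 17703 against 1389 CPM, Alpl, the phosphatase of mineralizing cells, at 215 against 5.92 CPM, and Bglap (osteocalcin) at 285 against 4.68 CPM. Alpl was found in 15 of them and Bglap in 11. Pth1r, the receptor of parathyroid hormone, stood at 183 against 86.5 CPM, and Sp7, an osteoblast transcription factor, at 5.86 times the level of the other cells (1.56 to 15.6). Mmp13, a collagenase, was found in 2 of the 36 cells and Dmp1, a protein of mineralized matrix, in 2, with intervals of the ratio that include 1 (0.824 to 6.07 and 0.912 to 31.2). Ihh and Panx3, made by prehypertrophic and hypertrophic chondrocytes, had 6 UMIs and 1 UMI in the whole aged stroma, too few to read their 0 UMIs in 36 cells. Col9a1 and Col9a2 were found in 5 of the 36 cells each. Col9a1 stood at 8.84 CPM in them against 0.353 CPM in the others (ratio interval 9.32 to 57.7), and Col9a2 was 26.7 times higher (9.89 to 62.0). All 36 lay in cluster 1, whose leading genes include Ibsp, while the other stromal cells came from clusters 1, 2 and 3. A comparison with the other cells of cluster 1 alone was not made. The 36 cells were also large, with a median of 20000 UMIs against 9811. No share of all genes is given for them. In the Col2a1-high cells of 78 w, 5 of 6 measured hypertrophy and mineral genes were at least 2-fold higher too, against 2.65% of all genes. Those cells held 91.5% of the aged Col10a1 UMIs, so this is not a separate observation. Since Col10a1 chose the 36 cells and nearly all of them held Col2a1, these values describe them and test nothing.

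In the Col2a1-high cells of 3 w and later, the other cartilage collagens were higher than in the remaining stroma. Col11a2 stood at 147.5, 104, 146 and 127 CPM in them, which was 8.23, 17.5, 12.2 and 8.08 times the level of other stromal cells. Col9a3 stood at 369, 171, 115 and 131 CPM, which was 5.80, 9.18, 10.3 and 5.49 times higher, and Col11a1 at 1126, 323, 337 and 672 CPM, or 3.88, 4.75, 5.72 and 3.20 times higher. Col9a1 was found in 48.4% of Col2a1-high cells at 3 w but in 7.35%, 4.85% and 3.81% in the later libraries, and Col9a2 in 51.6%, 10.3%, 6.61% and 8.57%. Of all genes tested, 3.63% were at least 2-fold higher in Col2a1-high cells at 3 w, 3.53% at 16 w, 2.65% at 78 w and 1.71% in the injured library, and the members with at least 100 UMIs, 5, 3, 4 and 3 of the other 6, were all among them. Since Col2a1 chose these cells and they are deeper, this describes them and tests nothing.

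**Figure D4:**
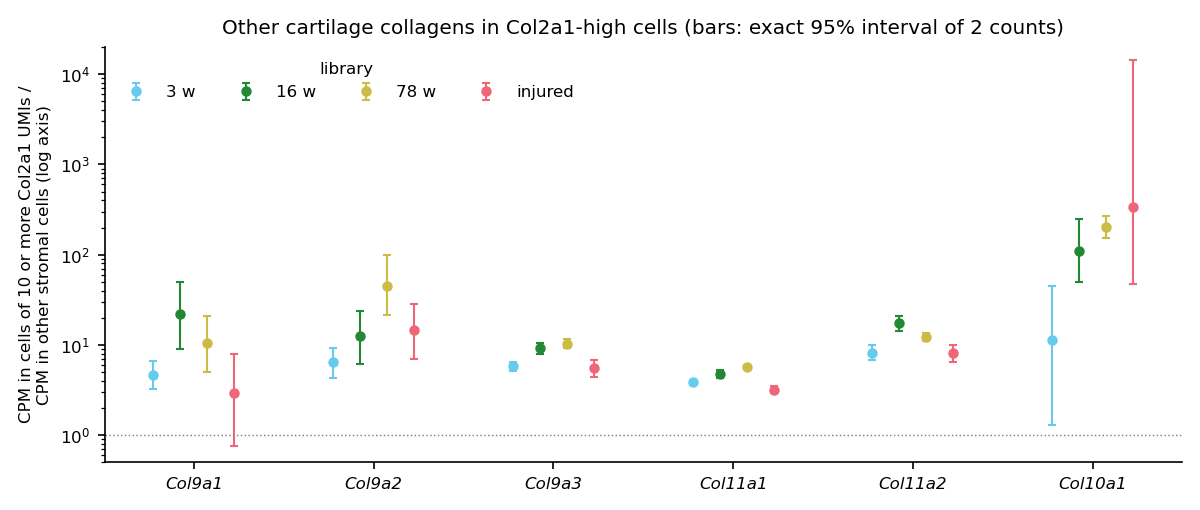
CPM in stromal cells with at least 10 Col2a1 UMIs divided by CPM in other stromal cells (log axis) for the other 6 cartilage collagens in 4 libraries, with exact 95% intervals. All points lie above 1, and the injured Col9a1 interval (0.762 to 7.98) includes 1.

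Of 14 cartilage matrix genes, 6 of 12, 6 of 11, 6 of 11 and 4 of 10 with at least 100 UMIs were at least 2-fold higher in the Col2a1-high cells at 3 w, 16 w, 78 w and after injury, beside the shares of all genes above. Cilp, a matrix protein of the cartilage intermediate layer, was lower at 3 w and 16 w, at 0.340 and 0.443 of the level of the other cells, and Matn4 at 16 w, at 0.293. Acan, the main cartilage proteoglycan, stood 7.69, 16.1, 6.89 and 4.31 times higher in them at 3 w, 16 w, 78 w and after injury. Snorc, a small chondrocyte proteoglycan, stood 46.2, 43.0, 66.3 and 32.8 times higher, and Chad (chondroadherin) 4.09, 4.19, 4.44 and 3.91 times higher. Sox9, the transcription factor that switches on Col2a1, stood at 1.62, 1.52, 1.18 and 1.39 times, with a Sox9 UMI in 93.3% to 97.4% of these cells and 68.3% to 83.1% of the others. Sox5 and Sox6, its partners, stood at 0.597 to 0.728 and 0.966 to 1.41 times the level of the other cells. Col1a1, the main chain of type I collagen, was found in all 31, 65 of 68, 135 of 227 and all 105 of these cells. Of all stromal cells 99.9%, 88.9%, 78.8% and 99.3% held it, so only at 78 w was it found less often in the Col2a1-high cells.

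Within single cells, Col2a1 and the other members were often found together. Of stromal cells with a Col2a1 UMI, 46.1% (42.3% to 49.9%), 74.7% (69.3% to 79.5%), 58.4% (52.9% to 63.8%), 51.5% (47.6% to 55.4%) and 42.0% (36.9% to 47.2%) held at least 2 of the other 6 genes. Of stromal cells without Col2a1 the shares were 23.6%, 34.8%, 8.63%, 6.72% and 6.60%. After thinning to 1000 UMIs they were 12.4% against 1.89%, 15.7% against 2.34%, 7.78% against 0.277%, 6.34% against 0.223% and 12.2% against 0.932%, so cells with Col2a1 held more of the other members at equal depth too. Of the few endothelial-like cells with Col2a1, 6 of 15, 2 of 4, 3 of 4, 2 of 12 and 0 of 7 held at least 2 others with all UMIs. This compares with 0.599% to 3.75% of those without. The share was thus higher with Col2a1 in the normal libraries but not in the injured one. After thinning, 1 to 3 endothelial-like cells with Col2a1 were left per library, and 0 of them held 2 others. All 7 genes were found together in 2 cells, both at 78 w, and at least 5 of them in 21, 123, 11, 45 and 8 cells. None of the 7 was found in 39.4%, 26.3%, 58.4%, 61.2% and 57.4% of stromal cells.

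**Figure D5:**
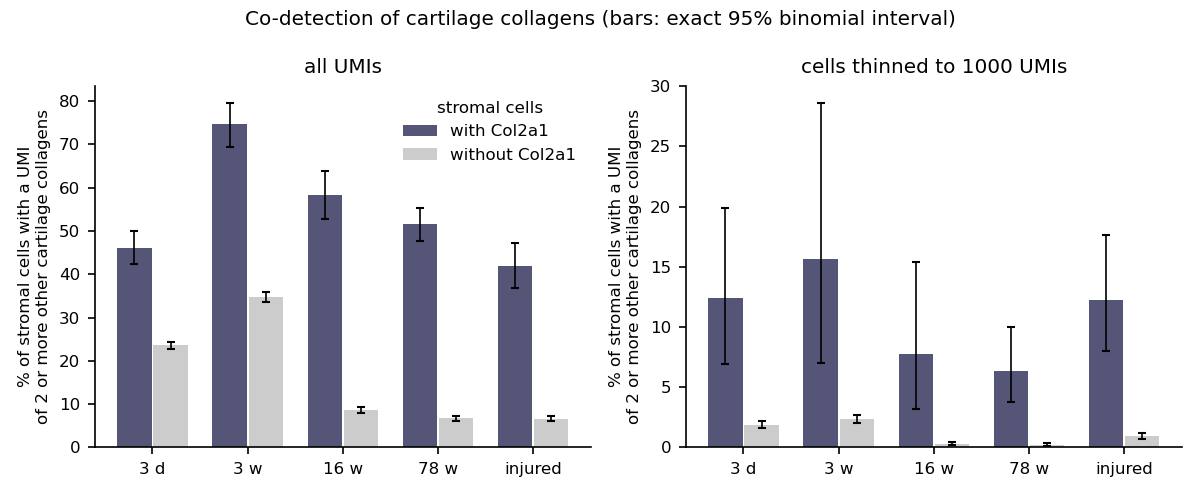
Share of stromal cells (%) that hold a UMI of at least 2 other cartilage collagens, among cells with and without a Col2a1 UMI, with all UMIs (left) and after thinning each cell to 1000 UMIs (right); bars show exact 95% binomial intervals. In each library the cells with Col2a1 are above those without, at 42.0% to 74.7% against 6.60% to 34.8% on the left.

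Counted over the comparisons, the 7 genes did not move as 1 group. From 3 d to 3 w, 4 of the 7 were at least 2-fold higher (Col2a1, Col9a1, Col11a1, Col11a2), where 16.3% of all genes with at least 100 UMIs were, and Col9a2 was lower, where 19.0% were. Col10a1 had too few UMIs. The median log2 ratio of the 6 measured members was 1.20, and that of all genes -0.04. From 3 w to 16 w, 5 were lower (Col9a1, Col9a2, Col9a3, Col11a1, Col11a2) against 5.77% of all genes, and Col2a1 alone was higher against 5.16%, with a median of -1.83 over 6 members and -0.10 over all genes. From 16 w to 78 w, Col2a1, Col10a1 and Col11a2 were higher against 2.06% of all genes, and none was lower against 1.32%, with Col9a1 and Col9a2 under the minimum of 100 UMIs and medians of 1.29 over 5 members and -0.06 over all genes. Over the whole span from 3 d to 78 w, the 3 type IX chains were lower against 21.0% of all genes, and Col2a1, Col10a1 and Col11a2 were higher against 14.3%, with medians of -0.98 over the 7 and -0.17 over all genes. TMM scaling left these counts of members as they were, while over all genes tested between 3 d and 78 w it gave 16.9% lower and 18.1% higher.

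In the injured disc, Col2a1 was higher than at 3 w, where 5.01% of all genes were at least 2-fold higher, and the 3 type IX chains were lower, where 17.4% were. Col9a1, Col9a2 and Col9a3 were 4.99-fold (3.76 to 6.77), 4.05-fold (2.97 to 5.65) and 2.45-fold lower (2.27 to 2.65). Against 16 w, Col2a1, Col11a1 and Col11a2 were higher, by 3.19-fold, 3.08-fold and 2.48-fold, where 5.81% of all genes were, and no member was lower, where 14.5% were, with Col9a1, Col9a2 and Col10a1 under the minimum. With TMM scaling the shares over all genes were 12.3% lower and 6.99% higher against 3 w, and 11.0% lower and 7.41% higher against 16 w, and the members' counts stayed as they were. The median over members was -0.85 against 3 w and 1.47 against 16 w, where that over all genes was -0.37 and -0.31. These comparisons share the injured library and the 3 w or 16 w library with those above. The levels of Col9a3 and Col11a1 after injury lay between those of 3 w and 16 w, that of Col11a2 lay at that of 3 w, and that of Col2a1 lay above both.

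Other cartilage and collagen genes were read from lists in the same stromal cells. At the steps from 3 d to 3 w, 3 w to 16 w and 16 w to 78 w, 16.3%, 5.16% and 2.06% of all genes tested were at least 2-fold higher and 19.0%, 5.77% and 1.32% lower. Of 14 cartilage matrix genes, 12, 12 and 11 had the minimum of UMIs, and 8 were higher and 3 lower at the first step, 4 higher and 3 lower at the second, and 1 higher and 0 lower at the last. The list's median log2 ratio was 3.59 over 12 measured genes at the first step and 0.49 and 0.47 at the next. Chad had 11.6, 1583, 3400, 2095 and 1586.5 CPM, and Comp, which binds type II and type IX collagen, 54.8, 5579, 5821, 8069 and 3350.1 CPM. Acan instead had 100.8, 27.5, 37.3, 119.5 and 63.7 CPM. Of 13 collagens that share fibrils with cartilage collagens or bind them, 7 were lower and none higher at 3 w than at 3 d, and 6 were lower and 1 higher (Col27a1) at 16 w than at 3 w. Their median was -1.08 and then -1.04. Col1a1 had 9669.5, 12965, 937, 903 and 24379.8 CPM in the 5 libraries. Of the 13, 9 were higher after injury than in the adult disc, against 5.81% of all genes, and 12 were lower at 78 w than at 3 d, against 21.0%.

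Of the 7 measured chondrogenic regulators, 2, 1 and 0 passed 2-fold from 3 d to 3 w, 3 w to 16 w and 16 w to 78 w. Of 6 measured hypertrophy and mineral genes, 5 did so at the last of these steps. The list has 10 regulators, of which 7 had the minimum of UMIs. Of these, 2 (Sox5, Runx2) were higher at 3 w than at 3 d, against 16.3% of all genes. At 16 w 1 (Sox9) was higher than at 3 w, against 5.16%, and none passed 2-fold between 16 w and 78 w. After injury 2 (Sox9, Mef2c) were higher than at 3 w, against 5.01% of all genes. Over the whole span from 3 d to 78 w, 5 of the 7 measured regulators were higher (Sox9, Sox5, Sox6, Runx2, Scx), against 14.3% of all genes. Sox9 had 184, 206, 687, 721 and 938 CPM in the 5 libraries. Of 10 hypertrophy and mineral genes, 5 (Mmp13, Alpl, Spp1, Ibsp, Bglap) were higher at 78 w than at 16 w, the step at which Col10a1 was higher too, against 2.06% of all genes and with a median of 2.42 over 6 measured genes. The same 5 were higher at 78 w than at 3 d, and 2 (Spp1, Ibsp) were lower after injury than at 3 w, against 17.4% of all genes. Ibsp had 0.333, 69.5, 123, 345 and 17.5 CPM. At 78 w a UMI of Mmp13, Alpl and Bglap was found in 0.335%, 1.38% and 1.33% of stromal cells. For Ibsp and Spp1 the share was 16.0% and 51.6%. Mmp13 had 2 UMIs at 16 w, which were counted as 3. Of 16 genes for making collagen, 6 were lower and 2 higher at 3 w than at 3 d, against 19.0% and 16.3% of all genes. At 16 w 2 (Plod1, Adamts2) were lower than at 3 w, against 5.77%, and none was higher. None passed 2-fold between 16 w and 78 w. Of 7 collagen receptors, Itga1 and Itga10 were higher at 3 w than at 3 d, against 16.3% of all genes.

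Genes with the most similar pattern to each member were sought by the correlation of log-normalized UMIs over stromal cells, averaged over the 5 libraries. The 9325 genes compared had at least 100 UMIs in the stromal cells of every library. Col9a1, Col9a2 and Col10a1 fell short of this, so they could not be named for another member. The first gene was Col11a2 for Col2a1 (mean r = 0.273, from 0.0430 to 0.455 over libraries), Col2a1 for Col11a2 and for Col10a1 (0.123), Col9a3 for Col9a1 (0.0930) and Col9a2 (0.148), Scrg1 for Col9a3 (0.341) and 1500015O10Rik for Col11a1 (0.352). Acan was among the first 5 for Col2a1, Col10a1 and Col11a2. These values describe cells that share a library and differ in depth, and those of Col9a1, Col9a2 and Col10a1 are too weak to rank genes.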

How the data were processed

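The authors made 10x Genomics 3′ libraries from discs digested with Pronase and Collagenase P and deposited, per library, UMI counts per gene and barcode, whole-number and not normalized. Their processing notes name Cell Ranger 3.1 and mm10, whereas the count files themselves carry version 4.0.0 in their header. Depth was 31585993 to 125427849 UMIs over 8467 to 15169 barcodes per library. Barcodes of 200 UMIs or fewer, or with more than 30% of UMIs from mitochondrial genes, were left out. Cells were clustered in Seurat 5.3.0 (R 4.3.3) as the study describes (2000 variable features, integration over 30 dimensions, resolution 0.2), with 43 listed genes left out of the features. A cluster was called stromal with at least 4 of 7 markers at 2 times the 25th percentile of other clusters (5 CPM added) and without a median depth far under that of its library, a rule set after the clusters were seen, so names are rebuilt here. Cells with the top Scrublet scores (scanpy 1.11.5), 6.78% to 12.0% per library, were marked as doublets and kept.

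UMIs were summed per library and class and given as CPM. Intervals are Poisson for counts, Clopper-Pearson for shares and conditional binomial for ratios (SciPy 1.17.1). Between libraries, a gene entered counts of 2-fold differences with at least 100 UMIs in the library with the higher CPM. A count under 3 was set to 3. Between Col2a1-high and other stromal cells, the 100 UMIs were those of both groups together, and low counts were left as they were. A gene with few UMIs in the Col2a1-high cells could thus be called. The interval and the thinning were tested on simulated data. Those UMIs were drawn independently, so this does not cover genes whose UMIs lie in a few cells. edgeR 4.0.16 gave TMM factors only, and no model was fitted.

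The members, the gene lists and the genes named were chosen with earlier results of these data known. The rule for named genes was all 7 members, listed genes that passed 2-fold or had the highest CPM, and the 5 genes of highest correlation per member. The listed genes named in Col2a1-high and Col10a1 cells, and those cells themselves, were chosen after values were seen. Alternatives were other clusterings, a marker gate, a stricter cell filter, doublets left out, TMM, equal weights, thinning, subtraction of the endothelial-like level, no minimum and a 1.5-fold limit.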

Additional observations from a re-analysis of the deposited data

How the results depend on the processing

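No paired analysis was possible because each condition has 1 library. For the same reason no replicate could be left out. Over 13 alternatives the counts of members past 2-fold moved by over 1.5 times in few cases. From 3 d to 3 w, 2 members were higher instead of 4 with cells weighted equally or thinned to 1000 UMIs, and 2 were lower instead of 1 without the Col2a1-high cells (an alternative added after seeing the data). There the ratio of Col2a1 turned around, to 0.435. From 3 w to 16 w, 0 members were higher instead of 1 with equal weights, with thinning and without the Col2a1-high cells. From 16 w to 78 w, 1 was higher instead of 3 without those cells, and 1 was lower with no minimum of UMIs. From 3 d to 78 w, 1 was higher instead of 3 without those cells. Without the Col2a1-high cells the changes come from their removal, and for the other settings the cause was not tested. The ratio of Col9a3 between 3 d and 3 w, 1.13, ranged from 0.804 to 1.20. The share of cells with Col2a1 that held 2 or more other members was, in the order 3 d, 3 w, 16 w, 78 w and injured, 12.4%, 15.7%, 7.78%, 6.34% and 12.2% after thinning, and 65.2%, 90.9%, 81.8%, 73.0% and 54.3% with at least 2 Col2a1 UMIs. The comparisons of the injured library kept their counts of lower and higher members within 1.5 times in all alternatives run. Depth limits Col9a1 and Col9a2 at 16 w, 78 w and after injury, and Col10a1 in all libraries but 78 w.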

Other observations

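Outside the stromal clusters, cartilage collagens were low with an exception. In cluster 8, which carried synovial lining markers, Col2a1 stood at 0 to 1.54 CPM in the normal libraries and at 130.4 CPM in the injured one, where 84 UMIs lay in 9 of 163 cells and the other cells held none. In mural-like cells Col2a1 stood at 0.933 to 18.5 CPM and Col11a1 at 12.0 to 56.1 CPM.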
